A study of Homo sapiens with 10 samples.

Results

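Mitochondrial ribosomal proteins are the proteins, encoded in the nucleus, that are imported into mitochondria and built with the mitochondrial rRNAs into the mitoribosome. The genes described here are the protein-coding genes whose symbol is MRPL or MRPS followed by a number, together with DAP3, and pseudogenes were left out. They number 79 of the 59204 human genes listed in the count tables, with 49 MRPL symbols, 29 MRPS symbols and DAP3. By the structure-based names, 51 belong to the large subunit and 27 to the small subunit. MRPS36 belongs to neither, since its product is known as KGD4, a part of the 2-oxoglutarate dehydrogenase complex. By descent, 27 have counterparts in the ribosomes of all domains of life, 19 have counterparts of the bacterial type, and 32 are specific to mitochondria.

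The mitoribosome translates the few mRNAs made from mitochondrial DNA, all of which code for subunits of the oxidative phosphorylation complexes. Its small subunit holds the decoding centre, and its large subunit holds the peptidyl transferase centre and the exit tunnel. Its proteins must match rRNAs that are transcribed in the mitochondrion, so their supply depends on a different genome from that of the RNA they bind. Promoters of nuclear genes for mitochondrial proteins are known for sites of NRF1 and of ETS family factors such as GABP.

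The libraries come from K562, an established chronic myeloid leukaemia line with erythroid features, grown as a culture. Every culture received 30 µM 4-thiouridine (4sU) for 12 h, with medium exchanged every 3 h, and was then washed into 3 mM uridine. The 0 h library was taken at that point. The 3 arms continued for 2, 4 or 8 h with DMSO, with 1 µM JQ1, which blocks the bromodomains of BET proteins, or with 1 µM AZ-5576, which inhibits CDK9, the kinase that releases paused RNA polymerase II. Each of the 10 conditions has 1 library (n = 1), so no value has a replicate check, and the p-values below measure scatter of the libraries about a time course. They cover 1 cell line and 1 dose of each inhibitor.

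Libraries held 10293371 to 16008906 total reads, 2031796 to 3868420 labelled reads and 1208073 to 2366155 reads of fly S2 RNA. The fly RNA had been added at 5% to the purified RNA. Levels are given as reads for every 1000000 fly reads, called fly-normalised reads, and are therefore relative to RNA mass and not to cell number. Neither the number of cells nor the amount of RNA per cell can be read from them. Human reads per fly read were lowest in the AZ-5576 8 h library (5.38) and highest in the DMSO 2 h library (9.64). The fly genes themselves deviated most from their median profile in the AZ-5576 2 h library, by a median of 0.22 on the log2 scale. In the 0 h library that deviation was 0.16, and in the others 0.07 to 0.12. All 10 K562 and erythroid markers had reads in every library, from a low of 17 reads for BCR to 96862 for HBG1. Among markers of other cell types, KRT5 and INS had 0 reads in all 10 libraries, while EPCAM had 374 to 902 reads and LYZ 128 to 239. The part of these transcripts in the results below was not tested.

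The 250 bases before and 50 bases after the RefSeq start were available for 70 of the 79 genes (GRCh38.p14). The ETS motif CCGGAAG lay in 29 of these 70 windows on either strand, or 41.4%, beside 10.7% of all 27305 windows in the table and 14.5% of the 15094 windows of protein-coding genes. The YY1 motif AAGATGGCG lay in 13, or 18.6%, beside 1.85% and 2.84%. The NRF1 motif (GCGCA, any base, then GCGC) lay in 8, or 11.4%, beside 6.28% and 8.67%, and the E-box CACGTG in 6, or 8.57%, beside 7.43% and 8.89%. The 4 motifs do not contain one another. A match is a run of letters, not a bound site.

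Upstream stretches of 5 genes that recur below are printed 5′ to 3′ on the strand of the gene, from windows that no exon of GENCODE v29 touches, with motif matches in capitals. MRPL17 had the largest decrease under AZ-5576, and its stretch is chr11:6683402-6683501 on the minus strand with an NRF1 match. MRPL36 lost label fastest, and its stretch is chr5:1799897-1799996 on the minus strand, where the NRF1 match reads on the opposite strand; RefSeq's start lies inside the longer gene of GENCODE v29, between whose exons the stretch falls. MRPS18A is also short-lived, and its stretch is chr6:43687792-43687891 on the minus strand with an ETS match. MRPL58, whose product rescues stalled mitoribosomes, is shown by chr17:75012450-75012549 on the plus strand, where the ETS match reads on the opposite strand. MRPS31, among the highest members under JQ1, is shown by chr13:40771191-40771290 on the minus strand, with an ETS match.
MRPL17: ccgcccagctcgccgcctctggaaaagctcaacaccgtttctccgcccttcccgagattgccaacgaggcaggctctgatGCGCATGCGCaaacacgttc
MRPL36: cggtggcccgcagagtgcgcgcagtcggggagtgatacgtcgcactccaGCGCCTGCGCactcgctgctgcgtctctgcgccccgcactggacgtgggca
MRPS18A: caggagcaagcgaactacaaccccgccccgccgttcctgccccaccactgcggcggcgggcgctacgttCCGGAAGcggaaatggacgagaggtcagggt
MRPL58: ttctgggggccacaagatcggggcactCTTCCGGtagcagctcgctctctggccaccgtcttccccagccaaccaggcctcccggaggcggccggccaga
MRPS31: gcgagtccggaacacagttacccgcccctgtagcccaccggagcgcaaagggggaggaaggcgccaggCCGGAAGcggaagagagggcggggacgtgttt

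The genes are spread over 21 chromosomes. A protein-coding gene on the other strand starts within 1000 bases of 29 of the 79, or 36.7%, beside 13.0% of the 19443 protein-coding genes listed. MRPL46 and MRPS11 form such a head-to-head pair with each other, 34 bases apart. By its GENCODE v29 start, MRPL36 lies 34 bases from NDUFS6, a complex I subunit gene. The RefSeq start of MRPL36 used for its motifs lies further from NDUFS6, inside the longer GENCODE gene. A total of 11 members overlap a protein-coding gene on their own strand and 27 on the opposite strand. The labels do not say if counting used the strand, so their counts are less certain. The 79 pseudogenes named after 37 of the members held 0.583% as many reads as the members did. For 4 members that share passed 5%: MRPS31 (50.3%), MRPL30 (27.1%), MRPS18C (24.3%) and MRPS36 (5.3%), whose values are uncertain for that reason.

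All 79 genes had reads in every library. Their mean total count ran from 9.6 for MRPL30 to 5350 for MRPS15, with a median of 943.6. At a minimum mean count of 20, 78 entered the tests of total RNA and 77 those of labelled RNA. MRPL30 entered neither, with 4 to 17 reads per library, and MRPL23, with 12 to 34 reads, entered the tests of total RNA only. At 0 h the members together held 0.835% of total reads (exact 95% interval 0.83% to 0.84%). That share was 0.797%, 0.76% and 0.852% at 2, 4 and 8 h in DMSO. The JQ1 libraries had 0.769%, 0.681% and 0.633%, and the AZ-5576 libraries 0.783%, 0.693% and 0.571%. Within each inhibitor arm the share was lower at each later time, and the lowest values of the 10 libraries were those of the inhibitors at 8 h. Such intervals cover counting error only, since each condition has 1 library. They may be too narrow even for that, because reads without molecular identifiers are not independent molecules.

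In DMSO the members lost label at about the rate of the average gene, and over a wide range among themselves. Labelled reads were those of the deposited nascent table, taken as reads with T-to-C changes. A straight line was fitted to log2 labelled counts per fly read over the chase, and is given as a change over 8 h. Labelled RNA was called lower over the chase for 76 of 77 members, beside 88.3% of the 8817 genes tested. The exception was MRPL13, whose fitted change was below 0 but did not pass the test. The median change of the members was -1.70 on the log2 scale, a half-life of 4.71 h, against -1.78 and 4.49 h over all genes tested. The large subunit (median half-life 4.71 h, 49 genes) and the small subunit (4.65 h, 27 genes) lay close together. By descent the medians were 5.19 h for proteins found in all domains, 4.61 h for the bacterial type and 4.11 h for those specific to mitochondria. These half-lives include dilution of the label by growth.

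**Figure D1:**
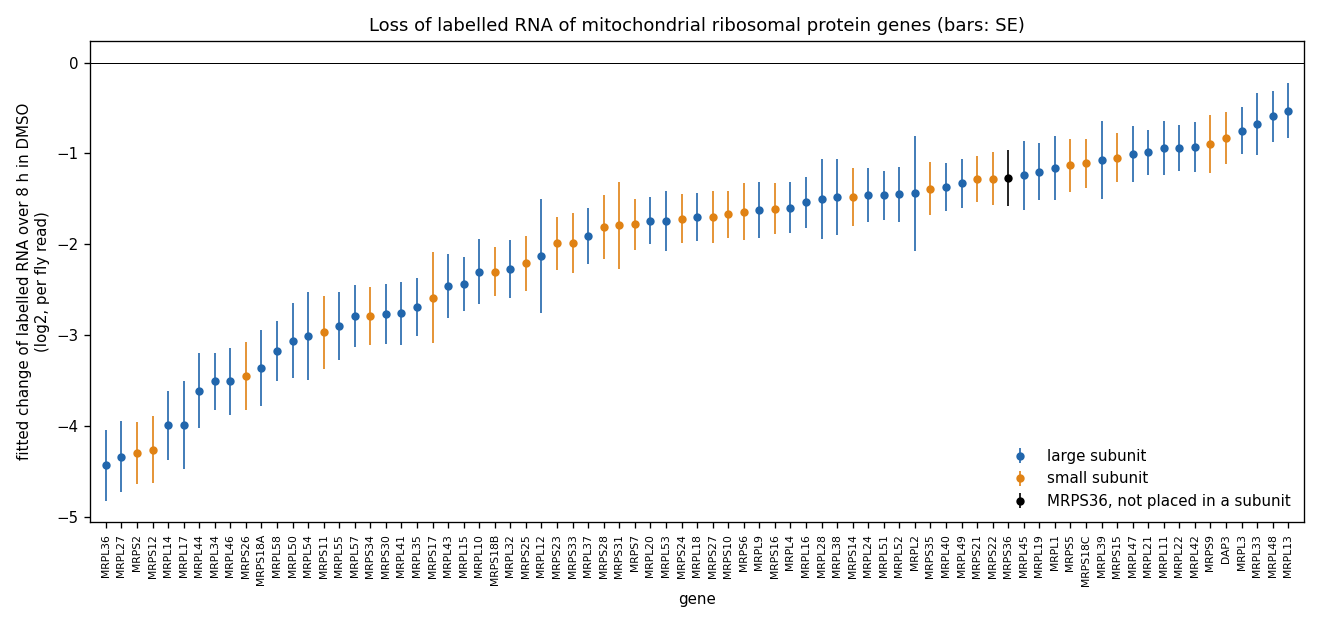
Fitted log2 change of labelled RNA over 8 h in DMSO for 77 genes, ordered by value, with bars of 1 SE and colours for the subunit. Values run from -4.43 for MRPL36 to -0.53 for MRPL13, and the 4 slowest are all of the large subunit.

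Half-lives in DMSO ran from 1.81 to 15.1 h, an 8.34-fold range. Summed over the members, fly-normalised labelled reads were 29025 at 0 h and 30702, 19112 and 10724 at 2, 4 and 8 h. They were thus no lower at 2 h than at 0 h, which a straight line from 0 h does not describe. A total of 21 genes were under 3 h, 34 from 3 h to under 6 h and 22 at 6 h or more. The range is wider than the usual SE of about 0.3 to 0.4 on the 8 h change, whereas neighbours in the order mostly differ by less than their SE. With the TMM scale, which centres the libraries on their own human genes and moves the median of all genes from -1.78 to -0.09, 25 members were called lower and 19 higher. On the scale of total human reads 77 of 77 members were called lower, with a median of -1.75. Without the DMSO 8 h library 44 members were called. Here and for changed settings below, shares of all genes called are given only where stated. Such counts are therefore not results about the members alone.

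The 4 fastest were MRPL36, MRPL27, MRPS2 and MRPS12. MRPL36, a small zinc-binding protein of the large subunit (chr5:1798386-1801366), had 318 fly-normalised labelled reads at 0 h. It had 277, 74.6 and 18.2 at 2, 4 and 8 h in DMSO, a fitted change of -4.43 (SE 0.39, adjusted p = 1.97e-27) and a half-life of 1.81 h. The labelled reads were thus close to the start level at 2 h and far below it by 8 h. MRPL27, whose bacterial counterpart reaches towards the peptidyl transferase centre (chr17:50367857-50373214), went from 301 to 242, 74.6 and 18.2 fly-normalised labelled reads (half-life 1.84 h, adjusted p = 3.72e-27). MRPS2, in the small subunit (chr9:135499984-135504673), went from 596 to 542, 235 and 39.7 (half-life 1.86 h, adjusted p = 1.19e-34). MRPS12, the protein at the decoding centre (chr19:38930548-38933162), went from 416 to 337, 131 and 26.1 (half-life 1.88 h, adjusted p = 3.56e-29). These 4 half-lives do not differ beyond their SE.

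The 4 slowest were all in the large subunit. MRPL3, whose bacterial counterpart lies near the peptidyl transferase centre (chr3:131462212-131502983), had 604 fly-normalised labelled reads at 0 h and 590, 479 and 391 at 2, 4 and 8 h (half-life 10.6 h, adjusted p = 0.00424). MRPL33 had 126, then 148, 97.9 and 84.5 (11.7 h, adjusted p = 0.0478). MRPL48, a protein specific to mitochondria, had 327, then 416, 274 and 245 (13.5 h, adjusted p = 0.0366). In MRPL33 and MRPL48 the 2 h value lay above the start, and in all 3 genes the 8 h value was the lowest. MRPL13 had 230, then 299.7, 231 and 173 (fitted change -0.53, SE 0.30, adjusted p = 0.0811). Its half-life of 15.1 h therefore has no firm upper limit here.

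The other genes of the mitochondrial gene expression system and of the machines that it serves gave different half-lives at their medians. It was 3.15 h for 26 mitoribosome assembly and rRNA modification factors, 3.88 h for 14 mitochondrial translation factors and 3.22 h for 5 mitochondrial transcription genes. For 4 mitoribosomal proteins outside the symbol rule (CHCHD1, AURKAIP1, PTCD3 and GADD45GIP1) it was 4.25 h. In contrast, it was 11.4 h for 77 nuclear oxidative phosphorylation subunits and 13.6 h for 78 cytosolic ribosomal proteins. The mRNAs encoded in mitochondria, 9 of which were tested, had 1.52 h. Of the mitoribosomal genes, 10 had a half-life of 8 h or more. These are descriptions of the lists, and no difference between lists was tested.

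The labelled share of member reads was lower at 8 h than at 0 h in DMSO and in JQ1, and close to its start in AZ-5576. Over all member reads it was 42.5% at 0 h. In DMSO it was 40.0%, 28.4% and 13.9% at 2, 4 and 8 h, and in JQ1 41.5%, 35% and 18.7%. In AZ-5576 it was 42.5%, 43.7% and 41.9%. Among the 77 genes with a mean total count of at least 100, the share was lower at 8 h than at 0 h for 77 under DMSO, 76 under JQ1 and 48 under AZ-5576. The median gene had 48.2% at 0 h, 12.9% in DMSO 8 h, 15.5% in JQ1 8 h and 46.2% in AZ-5576 8 h. Over all genes the medians were 52.1%, 9.96%, 12.1% and 42.0%, and over cytosolic ribosomal proteins 15.8%, 13.6%, 13.7% and 15.7%. This share uses no fly scale.

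**Figure D2:**
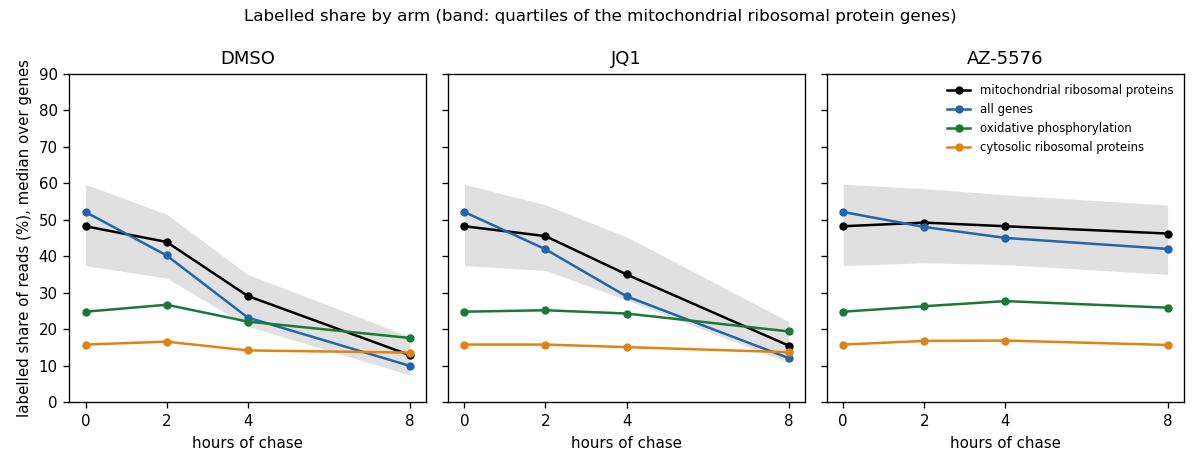
Median labelled share of reads (%) against hours of chase in the DMSO, JQ1 and AZ-5576 arms for 4 sets of genes, with the shaded band marking the quartiles of the mitochondrial ribosomal protein genes. The line of these genes goes from 48.2% to 12.9% in DMSO and 15.5% in JQ1, and to 46.2% in AZ-5576.

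Reads without label, which hold RNA made during the chase and RNA that escaped labelling, separated the arms in level. Summed over the members they came to 39268 fly-normalised reads at 0 h. The DMSO arm followed with 46124, 48242 and 66670 at 2, 4 and 8 h, the JQ1 arm with 35573, 34376 and 40809, and the AZ-5576 arm with 40585, 27343 and 17833. The DMSO values thus lay above the start at each time, the JQ1 values near it, and the AZ-5576 values below it at 4 and 8 h. Fly-normalised labelled reads were 29025 at 0 h, and at 8 h 10724 with DMSO, 9403 with JQ1 and 12874 with AZ-5576. The 8 h libraries therefore differed more in unlabelled than in labelled member reads.

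Under AZ-5576 the total RNA of nearly every member fell relative to DMSO. Fly-normalised total reads of the members were 68293 at 0 h, 76826, 67354 and 77394 in DMSO, and 70580, 48590 and 30707 in AZ-5576. At 2 h the arms overlapped broadly over genes, with a median log2 ratio to DMSO of -0.20, while at 8 h the AZ-5576 library was below DMSO for 78 of 78 genes, with a median of -1.45. The count of all genes below DMSO at 8 h is not given here. By slope, 77 of 78 members lay below DMSO, beside 11096 of all 11797 genes. Over the slopes, 70 of 78 members were called lower than in DMSO and 0 higher, beside 73.3% of all 11797 genes called lower and 0.559% higher. The members' share of 89.7% thus sits in a comparison in which most genes were called, and their median of -1.34 over 8 h was less negative than the -1.55 of all genes tested. With the TMM scale the median of all genes moved to -0.16 and that of the members to 0.05, with 18 members lower and 19 higher. On the scale of total human reads 49 members were lower and 4 higher, with a median of -0.63 against -0.83 over all genes. Without the AZ-5576 8 h library 30 members were called, and without the DMSO 8 h library 45.

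**Figure D3:**
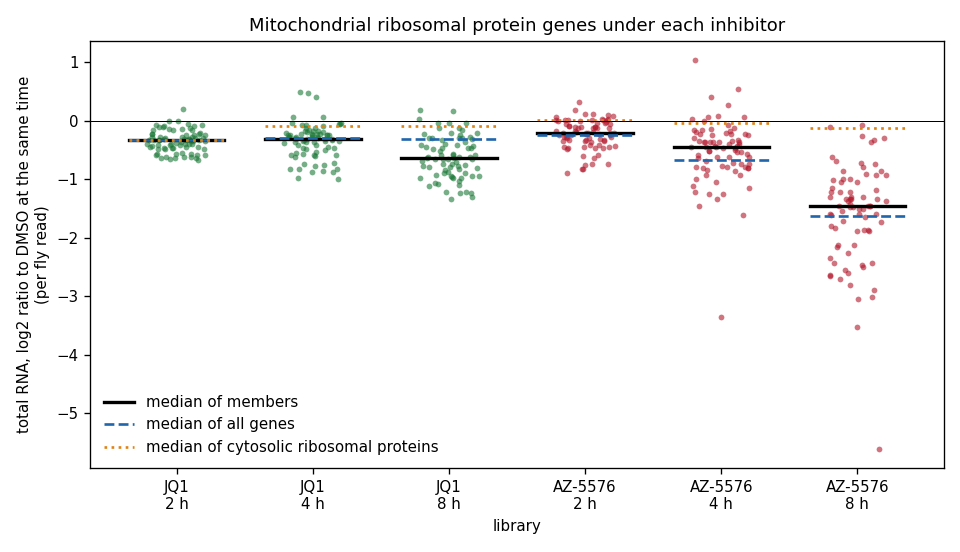
Log2 ratio of total RNA per fly read to the DMSO library of the same time, for 78 genes (points) in each inhibitor library, with medians of the members, of all genes and of cytosolic ribosomal proteins as lines. At 8 h the members' median is -0.64 in JQ1 and -1.45 in AZ-5576, and the cytosolic ribosomal proteins stay near 0 in both.

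When the difference was instead averaged over 2, 4 and 8 h, 0 of 78 members passed edgeR's quasi-likelihood test, beside 2.47% of all genes. An unadjusted p under 0.05 was found for 43 of the 78 members, beside 5198 of all 11797 genes. DESeq2 called 25 members on the same average, and edgeR called 52 without the AZ-5576 2 h library. The shares of all genes called in these settings are not given here, so the counts are not results about the members alone. The average treats a difference that grows with time as scatter, and its common coefficient of variation was 0.362 against 0.205 for the slopes. All 27 small-subunit genes passed the test on slopes, as did 42 of 50 large-subunit genes and MRPS36. The 8 that did not pass were MRPL2, MRPL11, MRPL12, MRPL23, MRPL28, MRPL48, MRPL52 and MRPL53, all of the large subunit. Their names were read off after the test.

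MRPL17 (chr11:6680782-6683401, minus strand), a neighbour of the exit tunnel in the bacterial ribosome, had the largest decrease. It had 272 fly-normalised total reads at 0 h. In DMSO it had 219, 261 and 382 at 2, 4 and 8 h, in JQ1 141, 142 and 235, and in AZ-5576 130.0, 25.2 and 7.61. The AZ-5576 values at 4 and 8 h were the 2 lowest of all libraries and rested on 37 and 18 reads. At 8 h the level was 2.05% of that in DMSO, and the slope difference was -5.66 over 8 h (SE 0.51, adjusted p = 1.38e-08), at percentile 0.7 of all genes. The JQ1 slope difference from DMSO did not pass the test (-0.92, SE 0.40, adjusted p = 0.107). Its labelled half-life was 2.0 h in DMSO, 1.6 h in JQ1 and 1.51 h in AZ-5576. The labelled share at 8 h was 2.67% in DMSO and 55.6% in AZ-5576, the latter with an exact 95% interval of 30.8% to 78.5%.

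MRPL46, MRPL16 and MRPL36 followed. MRPL46 (chr15:88459476-88467419, minus strand) had 441 fly-normalised total reads at 0 h. Its DMSO libraries had 541, 675 and 841, its JQ1 libraries 400.4, 382 and 446, and its AZ-5576 libraries 543, 221 and 73.1. The slope difference was -3.23 (SE 0.38, adjusted p = 2.18e-07). MRPL16, which contacts tRNA in the bacterial ribosome (chr11:59806135-59810872), had 596 at 0 h and 790, 1213 and 2397 in DMSO. It had 708, 618 and 945 under JQ1 and 572, 521 and 298 under AZ-5576, and the slope difference was -2.83 (SE 0.26, adjusted p = 1.64e-08). In the DMSO arm itself MRPL16 rose by 1.93 over 8 h (SE 0.21, adjusted p = 3.78e-06). MRPL36 had 558 at 0 h, then 541, 399.8 and 453 under DMSO, 415, 226 and 264 under JQ1, and 397, 194 and 54.9 under AZ-5576 (slope difference -2.78, SE 0.35, adjusted p = 6.03e-07).

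The head-to-head neighbour of MRPL46 gave other values. MRPS11 (chr15:88467453-88480773, plus strand), a protein of the small subunit's platform, had 351 fly-normalised total reads at 0 h. It had 350.1, 292 and 323 with DMSO, 324, 247 and 236 with JQ1, and 356, 262 and 131 with AZ-5576. The slope difference to DMSO was -1.04 (SE 0.30, adjusted p = 0.00349), against the -3.23 of MRPL46. The difference between the 2 genes was not tested. Their labelled half-lives in DMSO were 2.28 h for MRPL46 and 2.69 h for MRPS11.

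**Figure D4:**
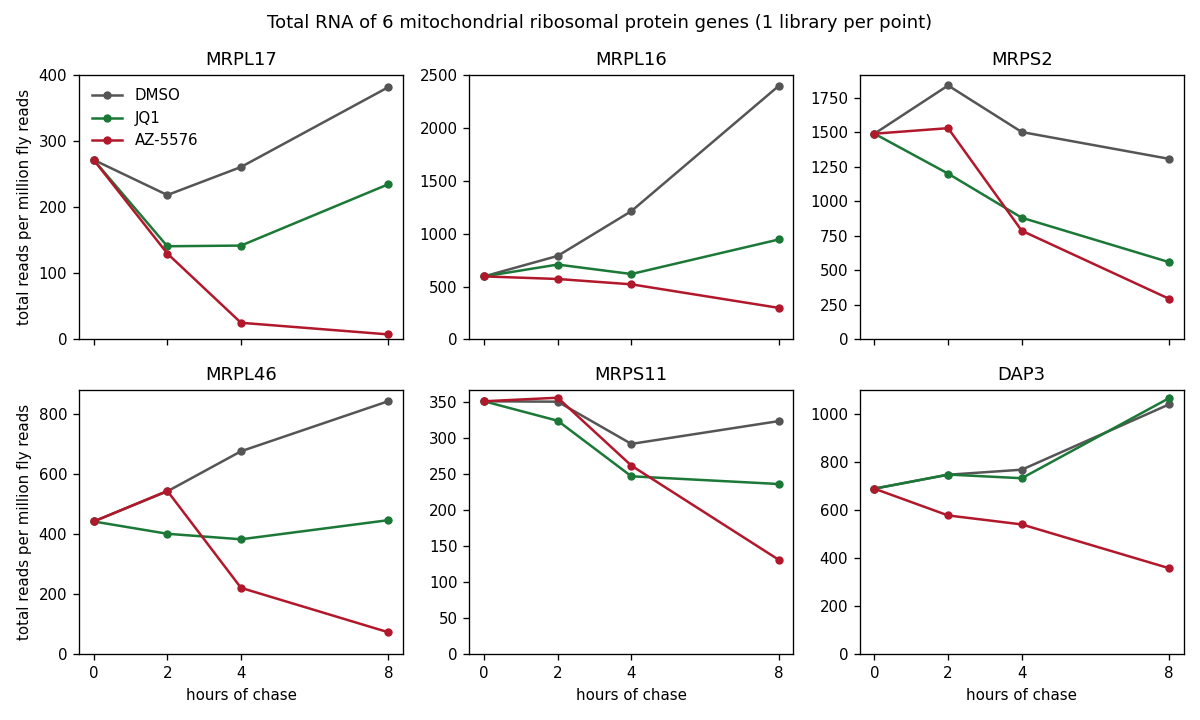
Fly-normalised total reads against hours of chase for MRPL17, MRPL16, MRPS2, MRPL46, MRPS11 and DAP3 in the 3 arms, 1 library per point and a shared 0 h value. MRPL17 reaches 7.61 in AZ-5576, MRPL16 reaches 2397 in DMSO, and DAP3 has 1038 in DMSO and 1064 in JQ1 at 8 h.

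At the other end, among members with a mean total count of at least 100, lay MRPL11, MRPL52, MRPL28 and MRPL53, none of which passed the test. Below that count, MRPL23 had 0.14 and did not pass either. MRPL11, at the base of the ribosomal stalk, had 936 fly-normalised total reads at 0 h, 978, 791 and 666 in DMSO and 894, 792 and 633 in AZ-5576. Its arms were nearly on top of each other (slope difference -0.08, SE 0.23, adjusted p = 0.758). MRPL52, specific to mitochondria, had 1518 at 0 h, 1526, 1051 and 1022 in DMSO and 1629, 1100 and 854 in AZ-5576 (-0.16, SE 0.24, adjusted p = 0.558). MRPL28 had 274 at 0 h, 288, 157 and 191 in DMSO and 265, 207 and 148 in AZ-5576 (-0.19, SE 0.32, adjusted p = 0.601). MRPL53 had 633 at 0 h, 671, 450 and 402 in DMSO and 642, 460 and 319 in AZ-5576 (-0.26, SE 0.26, adjusted p = 0.379). On the scale of total human reads the 4 slope differences were above 0, between 0.46 and 0.64, and with TMM between 1.14 and 1.32.

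Genes related by function were read in the same fits. Against DMSO, total RNA under AZ-5576 was called lower for 26 of 28 assembly and rRNA modification factors, 14 of 15 translation factors, 5 of 5 mitochondrial transcription genes and 4 of 4 mitoribosomal proteins outside the symbol rule. It was called lower for 23 of 77 nuclear oxidative phosphorylation subunits, 1 of 78 cytosolic ribosomal proteins and 1 of 11 mitochondrially encoded mRNAs. None of these lists had a member called higher. The medians over 8 h were -2.05, -1.62, -2.23 and -1.25 for the first 4 lists and -0.23, -0.10 and 0.26 for the last 3. The mitoribosomal genes, at -1.34, were among the former.

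Under JQ1 a smaller share of the members was called lower in total RNA against DMSO than under AZ-5576. By slope, 75 of 78 members lay below DMSO under JQ1 and 77 under AZ-5576, beside 9160 and 11096 of all 11797 genes. Fly-normalised total reads of the members were 60810, 52912 and 50212 at 2, 4 and 8 h in JQ1. The median log2 ratio to DMSO was -0.33, -0.31 and -0.64, and that of all genes -0.33, -0.29 and -0.31. Over the slopes 30 of 78 members were called lower and 0 higher, or 38.5% and 0%, beside 16.2% of all genes called lower and 1.79% higher, and the medians over 8 h were -0.68 and -0.41. With TMM 14 members were called and on the scale of total human reads 18, all lower, with members' medians of -0.26 and -0.40, so the direction was the same on the 3 scales. The calls rest on the DMSO 8 h library: without it 0 members passed edgeR's test. Their median was then -0.52, beside -0.47 over all genes, against -0.68 and -0.41 with all libraries. Without JQ1 4 h 16 members were called, without JQ1 8 h or DMSO 2 h 20, and without AZ-5576 2 h 40. As the shares of all genes called in these changed settings are not given, the counts are not results about the members alone.

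By subunit, 12 of 27 small-subunit and 18 of 50 large-subunit genes were called lower under JQ1. The average over 2, 4 and 8 h put 78 of 78 members below DMSO, beside 9521 of all 11797 genes. Of the members 0 passed edgeR's test, as did 0% of all genes. On that average 10 members had an unadjusted p under 0.05, beside 1081 of all 11797 genes. DESeq2 called 0 members, and a fit of the DMSO, JQ1 and 0 h libraries alone called 38. How many of all genes that fit called is not given here, so the 38 are not a result about the members alone. In that fit the median was -0.43 for the members and -0.31 for all genes. Of the related lists, JQ1 was called lower on slopes for 8 of 28 assembly factors, 4 of 15 translation factors, 1 of 5 transcription genes and 2 of 4 mitoribosomal proteins outside the rule. It was called lower for 3 of 77 oxidative phosphorylation subunits, 0 of 78 cytosolic ribosomal proteins and 0 of 11 mitochondrially encoded mRNAs.

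The 4 lowest under JQ1 were MRPL15, MRPL16, MRPS2 and MRPL34. MRPL15, found in the ribosomes of all domains, had 755 fly-normalised total reads at 0 h. It had 919.6, 1063 and 1384 at 2, 4 and 8 h in DMSO and 656, 577 and 557 in JQ1, so that every JQ1 value was below every DMSO value (slope difference -1.42, SE 0.25, adjusted p = 6.02e-04). MRPL16, with the values above, had -1.41 (SE 0.24, adjusted p = 4.32e-04). MRPS2 had 1489 at 0 h, then 1838, 1501 and 1307 under DMSO, 1200, 881 and 559.5 under JQ1 and 1529, 787 and 294 under AZ-5576, with a slope difference of -1.34 for JQ1 (SE 0.26, adjusted p = 0.00122). For AZ-5576 it was -2.03 (SE 0.27, adjusted p = 1.13e-06). MRPL34, a small protein of the bacterial type, had 941 at 0 h, 988, 845 and 1138 in DMSO and 774, 559 and 484 in JQ1 (-1.24, SE 0.25, adjusted p = 0.00198).

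Among members with a mean total count of at least 100, the 4 highest under JQ1 were all in the small subunit, and none passed the test. Below that count, MRPL23 of the large subunit had a higher value, 0.14. DAP3 (chr1:155687960-155739010), the GTP-binding protein of the small subunit that was first known for a role in cell death, had 688 fly-normalised total reads at 0 h, 746, 767 and 1038 in DMSO and 747, 731 and 1064 in JQ1. Those arms coincided (slope difference 0.0043, SE 0.23, adjusted p = 0.992), whereas in AZ-5576 it had 577, 539 and 358 (-1.44, SE 0.24, adjusted p = 1.49e-05). MRPS6 had 472 at 0 h, 656, 735 and 755 in DMSO and 553, 704 and 848 in JQ1 (0.06, SE 0.28, adjusted p = 0.904). MRPS31, whose counts are uncertain because of its pseudogenes, had -0.10 (SE 0.40) and MRPS14 -0.17 (SE 0.27). On the TMM scale and on that of total human reads the values of MRPS31 and MRPS14 were above 0.

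Between the inhibitors, the slope of total RNA was called lower in AZ-5576 than in JQ1 for 45 of 78 members and higher for 1. Of all genes, 55% were called lower and 0.822% higher. That single gene was MRPL28, with 193, 154 and 88.2 fly-normalised total reads in JQ1 against 265, 207 and 148 in AZ-5576 (difference 0.82, SE 0.33, adjusted p = 0.0367). With JQ1 8 h left out 7 members were called, and with AZ-5576 8 h left out 4. With TMM 9 members were lower and 27 higher, and the members' median turned from -0.68 to 0.29. On the scale of total human reads 27 were lower and 8 higher, with a median of -0.24.

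In DMSO itself total RNA was called higher over the chase for 11 of 78 members and lower for 3, beside 24.5% and 3.78% of all genes. Of those called higher, MRPL16 came first, followed by MRPL39 at 1.85 (SE 0.29) and MRPL45 at 1.43 (SE 0.24). The 3 called lower were MRPL52 (-0.71, SE 0.23), MRPL53 (-0.77, SE 0.25) and MRPS34 (-0.77, SE 0.23). With TMM 23 were called lower and 9 higher, on the scale of total human reads 14 and 15, and without the DMSO 8 h library 2 members were called. These genes, other than those that the naming rule gives, were chosen after their values were seen.

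Few members passed a test of whether label was lost at another rate under an inhibitor than in DMSO. In JQ1 labelled RNA was called lower over the chase for 77 of 77 members (90.8% of all genes). The half-life was 4.21 h at the median and 1.6 to 11.4 h over genes. In AZ-5576 labelled RNA was called lower for 73 of 77 (85.1% of all genes), with 5.3 h and 1.51 to 17.5 h. The half-life was shorter in JQ1 than in DMSO for 64 genes and longer for 13, and it was longer in AZ-5576 than in DMSO for 62 and shorter for 15. Of all 8817 genes, the slope difference from DMSO was below 0 for 5547 with JQ1 and above 0 for 6232 with AZ-5576. Of the members' differences from DMSO, 0 of 77 passed edgeR's test for JQ1, beside 0.669% of all genes. At an unadjusted p under 0.05 there were 4 of 77, beside 657 of all 8817 genes, and DESeq2 called 0 members.

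For AZ-5576, 2 of 77 members were called as losing label more slowly than in DMSO, or 2.60%, beside 3.53% of all genes. They were MRPS2 and MRPS11. MRPS2 had 613, 304 and 110.3 fly-normalised labelled reads at 2, 4 and 8 h in AZ-5576, against 542, 235 and 39.7 in DMSO (slope difference 1.23, SE 0.31, adjusted p = 0.00502). MRPS11 had 154, 110.3 and 57.5 against 154, 73.8 and 22.1 (1.21, SE 0.38, adjusted p = 0.0402). The distance opened at 4 and 8 h in both genes. No member was called without the DMSO 8 h or without the AZ-5576 8 h library, by the same edgeR test. On the scale of total human reads 66 members were called slower, beside 63.6% of all genes.

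The lowest members in that comparison were MRPL17 (-1.29, SE 0.59, adjusted p = 0.211) and MRPS31 (-0.50, SE 0.51, adjusted p = 0.668). For JQ1 the lowest were MRPL17 (-1.02, SE 0.59) and MRPL38 (-0.85, SE 0.44), and the highest MRPS18A (0.37, SE 0.43) and MRPL27 (0.29, SE 0.40), with adjusted p-values from 0.676 to 0.978. Between the inhibitors, 6 members were called as losing label more slowly in AZ-5576 than in JQ1, or 7.79%, beside 4.53% of all genes. Besides MRPS2 (1.36, SE 0.31), MRPS12 (1.13, SE 0.35), MRPS18B (1.00, SE 0.26) and MRPL58 (0.97, SE 0.31), they were MRPL43 (1.31, SE 0.34) and MRPS34 (1.11, SE 0.31). The last 2 were read off after the test. The count was 0 without the JQ1 8 h or the AZ-5576 8 h library, 19 without the 0 h library, and 63 on the scale of total human reads. On that last scale the median was 0.94 for the members and 0.80 for all genes.

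The 3 relatives of bacterial S18 occupy different places in the mitoribosome: MRPS18C holds the bacterial position, MRPS18B lies elsewhere in the small subunit and MRPS18A lies in the large subunit. Their half-lives in DMSO were 7.23, 3.47 and 2.38 h in that order. MRPS18B was the most abundant in reads, with 2392 fly-normalised total reads at 0 h, 2622 in DMSO 8 h, 1286 in JQ1 8 h and 1038 in AZ-5576 8 h. MRPS18C had 993, 1099, 824 and 551 in the same libraries, and MRPS18A 376, 437, 289 and 80.3. Under AZ-5576 all 3 passed the test on total slopes, with -1.19 (SE 0.24) for MRPS18B, -0.91 (SE 0.23) for MRPS18C and -2.02 (SE 0.38) for MRPS18A. Under JQ1 MRPS18B passed (-1.05, SE 0.24, adjusted p = 0.00419), while MRPS18C and MRPS18A had adjusted p-values of 0.153 and 0.196. Differences between the 3 genes were not tested.

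MRPL58, the peptidyl-tRNA hydrolase built into the large subunit, had 760.3 fly-normalised total reads at 0 h, 721 in DMSO 8 h, 473 in JQ1 8 h and 196 in AZ-5576 8 h. It passed for AZ-5576 (-1.72, SE 0.28, adjusted p = 1.12e-05) and had an adjusted p of 0.101 for JQ1. MRPL12, a protein of the stalk, rested on 91 to 275 reads per library and did not pass in either comparison (AZ-5576 -0.97, SE 0.44, adjusted p = 0.0529). MRPS12 passed in both, with -2.35 (SE 0.32) for AZ-5576 and -1.21 (SE 0.30) for JQ1. MRPS36, the gene whose product is not a ribosomal protein, had 535 at 0 h, 535 in DMSO 8 h, 491 in JQ1 8 h and 285 in AZ-5576 8 h. It was called lower for AZ-5576 (-0.83, SE 0.25, adjusted p = 0.00577) and not for JQ1 (-0.19, SE 0.25, adjusted p = 0.645).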

How the data were processed

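The authors deposited raw read counts per gene for all human reads, for reads named nascent and for fly reads. Per the labels' protocols, 3′ end libraries (QuantSeq, forward) followed conversion of 4sU by iodoacetamide. The submitters' processing notes name the builds hg38 and dm6, and the tools bedtools, Trim Galore 0.6.5 and bcl2fastq 2.17.1.14. The aligner, the annotation and the rule for a labelled read are not given in the sources used here. Symbols were found for 55381 of 59204 identifiers, and positions are those of GENCODE v29.

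Counts were fitted over all genes with edgeR 4.0.16 (R 4.3.3, limma 3.58.1), quasi-likelihood test, fly total as library size, mean count at least 20, Benjamini-Hochberg threshold 0.05. The slope model has a common 0 h level and 1 line per arm (6 residual degrees of freedom). The averaged model has 1 level per time and 1 term per inhibitor (4). Ratios of libraries used a pseudocount of 0.5. DESeq2 1.42.0, TMM, the scale of total human reads, other count minimums (1, 50), fits of fewer arms and each library left out were the alternatives. A further one, TMM over the fly genes, was chosen after seeing the data. The fits were tested on simulated data. Named genes are the 4 lowest and 4 highest members in the 3 main slope comparisons, the 2 lowest and 2 highest for labelled slope differences, with mean counts of at least 100 total or 50 labelled reads, and a panel of 8. The members, lists and tests were chosen with earlier results of these data known.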

Additional observations from a re-analysis of the deposited data

How the results depend on the processing

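Counts of members called, and medians and slope differences as log2 over 8 h, were recomputed under 18 settings. The share of all genes called also depends on the setting and is not given beside the counts below. These counts are therefore not results about the members alone. Of 166 recomputed counts 123 stayed within 1.5 times, of 166 medians 160 kept their sign, and of 902 values of single genes 39 changed sign, 50 lost their call and 12 gained one. Each library left out in turn gave ranges. For total RNA these were 30 to 71 members for the AZ-5576 slope against DMSO, 0 to 40 for JQ1, 4 to 53 for AZ-5576 against JQ1 and 2 to 19 for DMSO itself. For the differences averaged over time they were 0 to 52 for AZ-5576 and 0 to 10 for JQ1. For labelled RNA they were 44 to 77 for DMSO, 0 to 6 for AZ-5576 and 0 to 19 for AZ-5576 against JQ1, and 0 throughout for JQ1. The averaged model matches the arms by time. Beyond that match, a block on replicates could not be fitted, since each condition has 1 library.

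TMM called 32 members for DMSO total slopes, 37 for AZ-5576, 14 for JQ1, 44 for labelled DMSO slopes, and 4 and 3 for labelled AZ-5576 against DMSO and against JQ1. The scale of total human reads called 29 for DMSO, 18 for JQ1, 4 for the averaged AZ-5576 difference, and 66 and 63 for labelled AZ-5576 against DMSO and against JQ1. The averaged AZ-5576 difference had 8 members at a minimum mean count of 1, 25 by DESeq2 and 7 without the JQ1 arm. The averaged JQ1 difference had 38 without the AZ-5576 arm. Labelled AZ-5576 against DMSO had 1 member at that minimum and 1 without the JQ1 arm.

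With TMM the members' medians changed sign to 0.056 (averaged AZ-5576), -0.22 (DMSO slope), 0.047 (AZ-5576 slope) and 0.29 (AZ-5576 against JQ1). The DMSO median was -0.062 without DMSO 8 h, and the labelled JQ1 median 0.11 on the scale of human reads. With TMM the AZ-5576 total slopes were 1.32 for MRPL11, 1.24 for MRPL52, 1.21 for MRPL28, 1.14 for MRPL53, 0.42 for MRPL12, 0.21 for MRPS18B, 0.48 for MRPS18C and 0.57 for MRPS36. JQ1 total slopes were 0.32 for MRPS31, 0.24 for MRPS14 and 0.23 for MRPS36. Labelled DMSO slopes were 1.17 for MRPL13, 1.11 for MRPL48, 1.01 for MRPL33, 0.94 for MRPL3, 0.87 for DAP3, 0.59 for MRPS18C and 0.43 for MRPS36. On the scale of human reads AZ-5576 total slopes were 0.64 for MRPL11, 0.56 for MRPL52, 0.53 for MRPL28 and 0.46 for MRPL53, and JQ1 ones 0.17 for MRPS31, 0.099 for MRPS14 and 0.086 for MRPS36. The labelled AZ-5576 difference of MRPS31 was 0.22 there. Without DMSO 8 h, the JQ1 total slope of MRPS6 was -0.16 and the labelled JQ1 difference of MRPS18A -0.04. The JQ1 total slope of DAP3 was -0.03 with TMM over fly genes, -0.04 without DMSO 4 h and -0.30 without JQ1 8 h, and that of MRPS6 -0.13 without JQ1 8 h. With each library left out in turn, the AZ-5576 total slopes ran, with the upper end always without DMSO 8 h, from -0.27 to 0.16 for MRPL52, -0.39 to 0.44 for MRPL28 and -1.31 to 0.99 for MRPL12, and the JQ1 ones from -0.28 to 0.65 for MRPS31, -1.17 to 1.27 for MRPL12 and -1.72 to 0.13 for MRPS18A. The labelled AZ-5576 difference of MRPS31 ran from -0.99 to 0.47, the latter without AZ-5576 8 h. Both TMM and human reads change the scale by construction, and for the others the cause was not tested. Low depth limits MRPL23 and MRPL30.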
